A study of Mus musculus with 54 samples.

Results

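The genes described here are 10 apolipoprotein genes, Apoa1, Apoa2, Apoa4, Apob, Apoc1, Apoc2, Apoc3, Apoe, Apom and Apoh. They were taken by symbol and make up 10 of the 14104 genes that have a probe set of their own among the deposited values. They have 17 of the 30939 deposited probe sets, which need not be all of the array. Every share of all probe sets given below refers to the deposited ones. Where a gene has several, the one brightest on average across the 54 arrays was used. RNA was measured on Affymetrix Mouse Genome arrays in 3 lines of CGR8 embryonic stem cells (ESCs), a male mouse line of strain 129. WT cells carry no construct, SCR cells carry a scrambled shRNA, and KD cells carry an shRNA against Mageb16, a gene of the melanoma-associated antigen family. Both constructs came from retroviral plasmids, and SCR and KD cells were selected with puromycin as polyclonal populations, so that an effect of the shRNA and one of the line cannot be told apart. WT cells were not selected. Each line was sampled undifferentiated (day 0) and as embryoid bodies (EBs), aggregates formed in hanging drops, after 2, 4, 12, 15 and 22 days, with 3 arrays for each of the 18 groups. The labels do not say whether the 3 arrays stand for separate cultures, so that the p-values may measure technical spread only.

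Apolipoproteins are the protein part of the particles that carry lipids through blood and lymph. Apob is the structural protein of chylomicrons, VLDL and LDL, Apoa1 and Apoa2 are the main proteins of HDL, and the small C apolipoproteins move between particles and set the activity of lipoprotein lipase. In the mouse embryo these genes are first used by the visceral endoderm of the yolk sac and then by fetal liver, and Apob, Apoa1 and Apoa4 also by the intestine, while Apoe is made by many more cell types, macrophages and astrocytes among them.

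Values are log2 RMA signals, and differences are log2 differences between group means from 1 limma fit over all arrays, with moderated standard errors (SE). A gene is called higher or lower where it differs by 2-fold or more and its p, adjusted by Benjamini-Hochberg across every probe set, is under 0.05. Array medians lay between 5.94 and 6.26 and lower quartiles between 4.23 and 4.51. Apoa4, Apob, Apoc2, Apoc3 and Apoh lay under the lower quartile of their array on 22, 28, 36, 51 and 41 of 54 arrays, and the size of a difference from such a signal is not exact. Levels of different genes are not compared, since they come from different probes. Mageb16 itself was at 7.11, 7.00 and 7.06 on the KD arrays at day 0, at 10.09, 10.09 and 10.03 on the SCR arrays and at 9.99, 9.93 and 9.94 on the WT arrays. The mean of 7 pluripotent cell markers was 11.71 to 11.95 on every day 0 array, and over days 12 to 22 it was 10.59 to 11.02 in WT, 10.30 to 11.07 in SCR and 7.70 to 9.69 in KD EBs.

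Some arrays stood apart. Among probe sets whose 3 values in a group spanned at least 1 log2, replicate 3 lay between replicates 1 and 2 in 51.0 to 96.8% of cases in the 17 groups other than 22-day KD EBs, where it did so in 8.85% and replicate 1 in 85.2%. Of 21 such cases among the apolipoprotein genes, 19 had replicate 3 in between. Should the replicate 3 arrays depend on the rest, the errors given are too small, and each count below that changed without all arrays of replicate 3 is given with its value. In 12-day KD EBs replicate 2 was the lowest array for 9 of the 10 genes, and 7 of the 10 spanned at least 1 log2. The mean of 10 hepatocyte markers on these KD arrays was 8.18, 6.04 and 7.78 in replicates 1, 2 and 3.

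The stretches before the start of transcription are shown for 4 genes whose time courses differed. Apoa1 and Apoa4 belong to a single cluster on chromosome 9 (in the order Apoa1, Apoc3, Apoa4) but were first called higher in KD than in SCR EBs on different days. Apob on chromosome 12 was called in KD against SCR but not in KD against WT EBs, and Apoh on chromosome 11 rose further in KD EBs between days 12 and 22. Sequences are the 250 bases before the RefSeq start in build GRCm38.p6, all on the plus strand, 5′ to 3′. Capitals mark matches, on either strand, to letters that forkhead factors (TGTTTAC and TGTTTGC) and HNF4A (CAAAGNNCA, a relaxed form) are known to bind, and to TATAAA.
Apoa1, chr9:46228380-46228629: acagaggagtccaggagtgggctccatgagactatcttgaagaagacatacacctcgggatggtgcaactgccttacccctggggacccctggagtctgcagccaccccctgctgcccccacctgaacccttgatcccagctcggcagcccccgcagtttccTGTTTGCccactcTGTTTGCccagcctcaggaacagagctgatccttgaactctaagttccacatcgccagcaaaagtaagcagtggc
Apoa4, chr9:46240594-46240843: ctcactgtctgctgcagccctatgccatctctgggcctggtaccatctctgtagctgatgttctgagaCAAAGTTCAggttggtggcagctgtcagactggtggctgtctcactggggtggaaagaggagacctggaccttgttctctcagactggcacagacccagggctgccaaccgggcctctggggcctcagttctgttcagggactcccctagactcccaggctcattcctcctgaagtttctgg
Apob, chr12:7977427-7977676: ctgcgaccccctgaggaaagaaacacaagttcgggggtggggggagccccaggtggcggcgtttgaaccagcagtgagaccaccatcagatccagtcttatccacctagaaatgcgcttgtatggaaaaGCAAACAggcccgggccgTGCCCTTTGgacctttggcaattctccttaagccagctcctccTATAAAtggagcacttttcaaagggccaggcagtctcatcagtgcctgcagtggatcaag
Apoh, chr11:108395047-108395296: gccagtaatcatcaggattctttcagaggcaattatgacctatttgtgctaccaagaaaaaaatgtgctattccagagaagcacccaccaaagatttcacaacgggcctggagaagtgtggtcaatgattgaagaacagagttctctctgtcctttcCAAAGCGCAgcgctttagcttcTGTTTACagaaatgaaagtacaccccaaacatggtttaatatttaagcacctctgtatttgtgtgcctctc

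Counted backwards from the start, with -1 as the last base shown, the Apoa1 stretch held TGTTTGC at -88 to -82 and again at -75 to -69. The Apoa4 stretch held CAAAGTTCA at -182 to -174 and none of the forkhead letters. The Apoh stretch held CAAAGCGCA at -93 to -85 and TGTTTAC at -71 to -65. The Apob stretch held GCAAACA, the forkhead letters on the minus strand, at -121 to -115, the HNF4A letters on the minus strand at -103 to -95, and TATAAA at -60 to -55. No match overlapped another within these 4 stretches. Among 32851 promoter stretches of the same length, 5.49% held CAAAGNNCA, 3.17% held TGTTTAC, 4.30% held TGTTTGC and 12.4% held TATAAA. The promoter table held 8 of the 10 genes, with 11 starts, of which 3, 2, 2 and 3 held those letters in that order, and no stretch is shown for Apoc1 and Apoc3. The 4 stretches shown include every start with CAAAGNNCA or TGTTTGC. The stretches of Apoc2 and Apom, genes also called higher in KD than in SCR EBs, held none of the letters. The letters were chosen with the expression results known, and a match is a description of the sequence only.

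Of the 10 genes, 8 had low signals in undifferentiated cells and through day 4, and Apoe and Apoc1 had high signals from the start. On the 27 arrays of days 0 to 4, Apoa1 lay between 3.82 and 5.06, Apoa2 between 4.02 and 5.05, Apoa4 between 3.92 and 5.09, Apob between 2.91 and 4.43, Apoc2 between 3.00 and 3.90, Apoc3 between 3.28 and 3.80, Apom between 3.89 and 5.47 and Apoh between 2.92 and 3.63. Over the same arrays Apoe lay between 9.56 and 12.14 and Apoc1 between 6.04 and 9.71. From day 12 most of the 8 had higher signals in KD than in SCR EBs, and for Apoa1, Apoa2, Apoc2, Apom and Apoh the WT means lay in between at all 3 late ages. For Apoh at day 12 the SCR and WT arrays overlapped, all under the lower quartile, with means of 3.21 and 3.30. On the 9 late arrays of each line (days 12, 15 and 22) Apoa1 ran from 4.01 to 5.70 in SCR, from 6.83 to 10.06 in WT and from 8.34 to 11.66 in KD EBs.

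**Figure D1:**
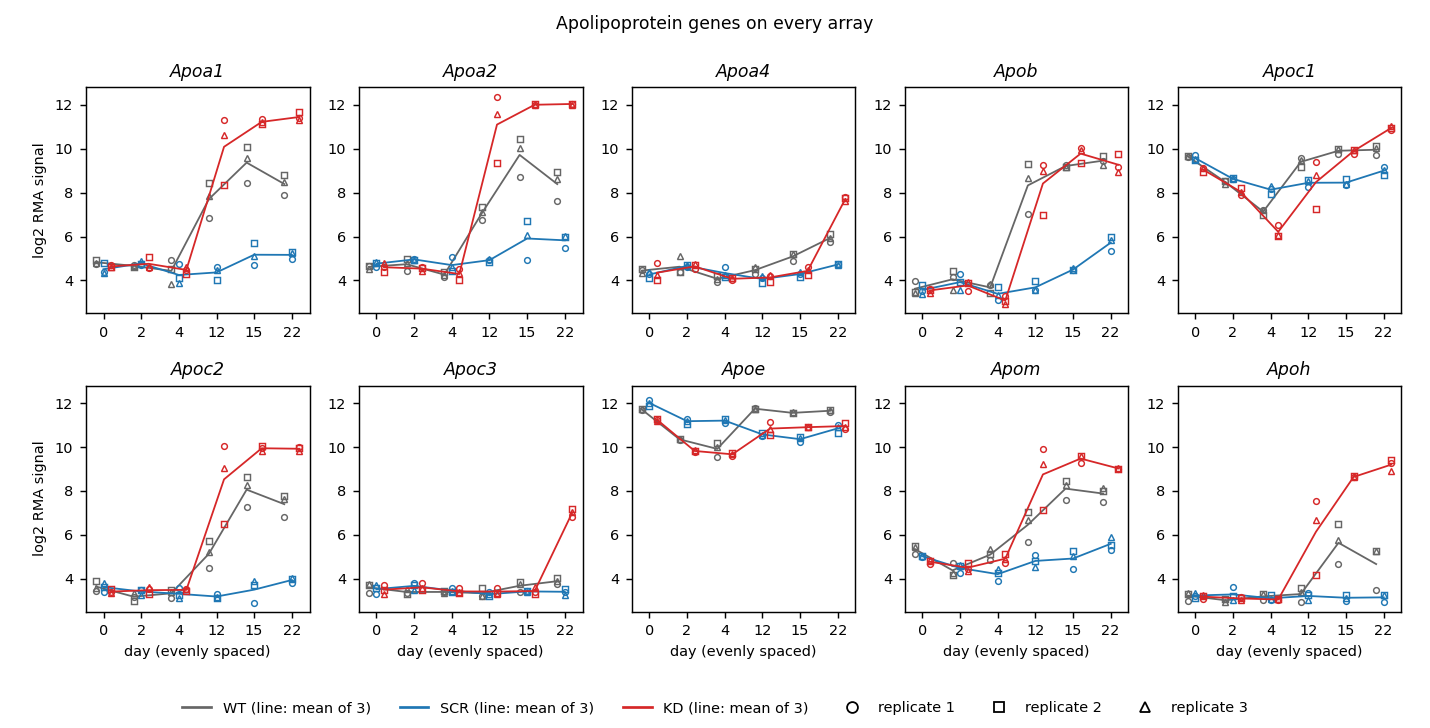
Log2 RMA signal of the 10 apolipoprotein genes (vertical axis) by day of differentiation (horizontal axis, days evenly spaced), 1 panel a gene. Points are single arrays with a shape for each replicate, lines join the means of 3 arrays, and colours are the lines. Apoc3 stays under 4.1 in every group but 22-day KD EBs (6.83 to 7.17), and replicate 2 of 12-day KD EBs lies low in most panels.

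In the step from ESCs to 4-day EBs, Apoe and Apoc1 were the genes called lower among the 10. Apoe encodes the ligand of LDL receptor family members. In WT cells it was at 11.67, 11.74 and 11.71 at day 0, at 10.33, 10.36 and 10.36 at day 2 and at 9.56, 10.17 and 10.01 at day 4. The arrays of days 2 and 4 lay below every day 0 array, and the differences from day 0 were -1.36 (SE 0.11, limma adjusted p = 8.15e-14) and -1.79 (adjusted p = 4.47e-18). Apoc1, a small surface apolipoprotein of VLDL and HDL, went from 9.64, 9.66 and 9.66 in WT ESCs to 7.19, 7.00 and 7.21 in 4-day WT EBs, by -2.52 (SE 0.24, limma adjusted p = 2.22e-12). At day 2 it was at -1.18. Apom was at -0.97 at day 2, under 2-fold, and was called without WT replicate 1 of day 0 or of day 2. So 2 of the 10 genes were called lower in WT EBs at day 2, where 4.66% of all probe sets were, and the count was 2 at day 4, beside 8.17%.

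KD cells made the same step with a count of 2 lower at day 2 (5.55% of all probe sets) and 2 at day 4 (7.42%). Apoc1 was at 9.14, 8.92 and 9.11 in KD ESCs and at 6.53, 6.04 and 6.07 in 4-day KD EBs, a difference of -2.84 (SE 0.24, limma adjusted p = 7.47e-14). Apoe was at -1.43 in 2-day and at -1.58 in 4-day KD EBs. In 2-day EBs Apoc1, at -1.01, was just past 2-fold, and it was under it without KD replicate 1 or 3 at day 0, without KD replicate 1 at day 2, or without all arrays of replicate 3 (count 1). In SCR cells none was called at day 2, where 10.2% of all probe sets passed in either direction. There 3 of the 10 had a limma adjusted p under 0.05 but were under 2-fold, Apoc1 at -0.94, Apoe at -0.83 and Apoa4 at 0.39. At day 4, 1 was lower (5.09%), Apoc1 at -1.43, while Apoe was at -0.80.

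The lines differed in Apoe and Apoc1 at day 4. Apoe was at 11.11, 11.26 and 11.24 in SCR and at 9.60, 9.72 and 9.68 in KD EBs, without overlap, and the WT arrays (9.56, 10.17 and 10.01) also lay below every SCR array. The KD minus SCR difference in Apoe was -1.54 (SE 0.11, limma adjusted p = 1.7e-15), and in Apoc1 it was -1.92 (SE 0.24, adjusted p = 5.78e-09). So 2 of the 10 were lower in KD than in SCR EBs at day 4 (4.81% of all probe sets), and 1 at day 2 (1.83%), Apoe at -1.36. At day 0 none was called in this comparison, where 0.924% of all probe sets were. At an unadjusted p under 0.05 there were 2, Apoe at -0.76 and Apoc1 at -0.51. Of these Apoe had a limma adjusted p of 1.335e-06 and arrays without overlap, and was not called only because it was under 2-fold. On the same 4-day arrays 6 of 7 pluripotent cell markers were lower in KD than in SCR EBs and 1 was higher (4.91% of all probe sets), with a median of -2.73. The part of these markers in the Apoe and Apoc1 differences was not tested.

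Against WT the KD line had no called gene among the 10 on days 0, 2 and 4, where 1.05%, 0.666% and 0.242% of all probe sets were called. At an unadjusted p under 0.05 there were 2, 1 and 2, from among Apoe and Apoc1. The largest of these was Apoc1 at day 4, at -0.92 (SE 0.24, limma adjusted p = 0.0295), and without KD replicate 1 at day 4 it was called, at -1.08. Apoe was under 2-fold at days 0 and 2, at -0.46 and -0.53, with limma adjusted p of 0.0022 and 0.0011. SCR against WT gave none at day 0 (0.624%) or day 2 (1.93%), with 1 (Apoe) and 2 (Apoe and Apoc3) at an unadjusted p under 0.05. Of these, Apoe at day 2, at 0.83, had a limma adjusted p of 2.2e-07 and was under 2-fold. At day 4, 2 were higher in SCR than in WT EBs (4.53%), Apoe at 1.29 (SE 0.11, limma adjusted p = 3.52e-13) and Apoc1 at 1.00 (SE 0.24). Apoc1 fell under 2-fold there without SCR replicate 1 or 3, without WT replicate 2, or without all arrays of replicate 3 (count 1). Apom, at -0.89, was called lower without SCR replicate 3 or WT replicate 1.

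**Figure D2:**
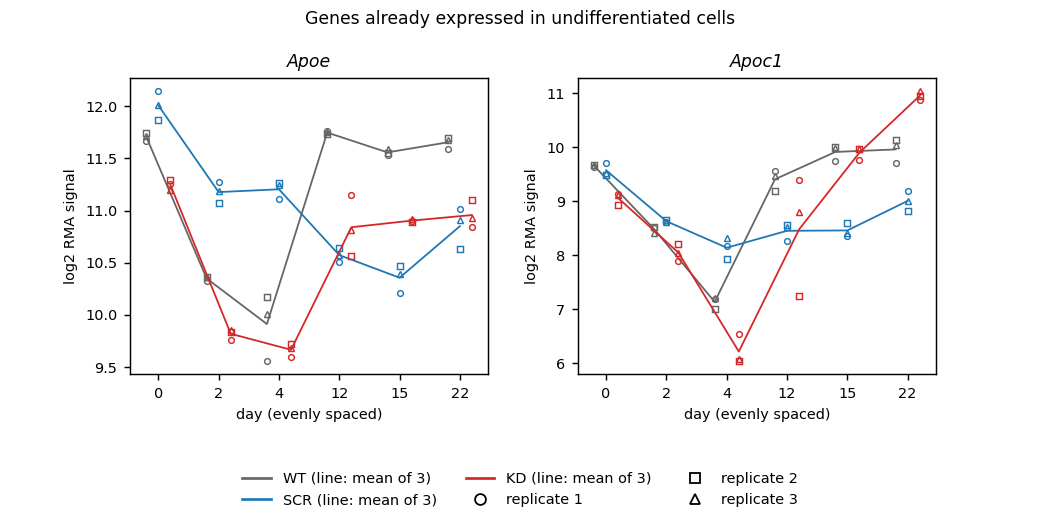
Log2 RMA signal of Apoe and Apoc1 (vertical axes, not from 0) by day of differentiation (horizontal axis, days evenly spaced). Points are single arrays and lines join the means of 3 arrays. In both panels 4-day SCR EBs lie above WT and KD EBs, and Apoc1 is highest in 22-day KD EBs (10.87 to 11.03).

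In 12-day EBs, 6 of the 10 genes were higher in KD than in SCR EBs, where 6.65% of all probe sets were. Their median difference over all 10 was 3.43, beside -0.02 over all probe sets. Apoa1, the main protein of HDL, was at 4.62, 4.01 and 4.46 in SCR and at 11.31, 8.34 and 10.62 in KD EBs. Every KD array lay above every SCR array, and the difference was 5.73 (SE 0.42, limma adjusted p = 4.49e-15). Apoa2, the other main HDL protein, was at 4.93, 4.86 and 4.98 in SCR and at 12.34, 9.37 and 11.60 in KD EBs, a difference of 6.18 (SE 0.41, adjusted p = 3.32e-16). Both genes had their low KD value on the array that was low in hepatocyte markers.

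Apoc2, the cofactor that lipoprotein lipase needs, was at 3.31, 3.10 and 3.14 in 12-day SCR and at 10.05, 6.50 and 9.03 in KD EBs, a difference of 5.34. All SCR arrays lay under their lower quartile. Apob was at 3.54, 3.96 and 3.55 in SCR and at 9.26, 7.00 and 8.99 in KD EBs, a difference of 4.73 (SE 0.37, limma adjusted p = 5.6e-14). Apom, a lipocalin that carries sphingosine-1-phosphate on HDL, differed by 3.94, from 5.08, 4.79 and 4.55 to 9.91, 7.13 and 9.21. Apoh, the phospholipid-binding plasma protein β2-glycoprotein I, was at 3.36, 3.26 and 3.01 in SCR and at 7.56, 4.16 and 6.67 in KD EBs, a difference of 2.92 (SE 0.43, adjusted p = 2.29e-07). Without KD replicate 2 the 6 genes were called as before, with larger differences of 6.60 for Apoa1, 7.05 for Apoa2, 5.44 for Apob, 6.36 for Apoc2, 4.75 for Apom and 3.91 for Apoh. Not called at day 12 were Apoa4 at 0.07, Apoc3 at 0.12, Apoc1 at 0.03 and Apoe at 0.27.

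At day 15 the count in KD against SCR EBs was 7 (7.56% of all probe sets) and at day 22 it was 9 (8.55%). Neither count changed when any 1 array, or all arrays of a replicate number, was left out. In 15-day EBs Apoc1 joined the 6 earlier genes, at 8.36, 8.60 and 8.41 in SCR and 9.77, 9.96 and 9.96 in KD EBs, a difference of 1.44 (SE 0.24, limma adjusted p = 1.64e-06). Apoh was higher by 5.51 there and Apoc2 by 6.45. The KD arrays lay close together at this age, with Apoa2 at 12.00, 12.03 and 11.99.

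By day 22 the difference was 6.29 for Apoa1 (SE 0.42, limma adjusted p = 1.44e-16), from 4.97, 5.28 and 5.24 in SCR to 11.39, 11.66 and 11.30 in KD EBs. It was 6.22 for Apoa2, 5.98 for Apoc2, 6.05 for Apoh, 3.55 for Apob, 3.44 for Apom and 1.95 for Apoc1. No SCR array of these genes reached the lowest KD array. Apoe, at 11.01, 10.63 and 10.91 in SCR and 10.84, 11.10 and 10.93 in KD EBs, was the gene not called, with 0.11 (SE 0.11, adjusted p = 0.413) and overlapping arrays. In pieces of mixed tissue, fewer cells of a type and less RNA per cell cannot be told apart, and this holds for every difference given here.

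Apoa4 and Apoc3 were called in KD EBs at day 22 and not before. Both belong to the Apoa1 cluster on chromosome 9. Apoc3, an inhibitor of lipoprotein lipase, was at 3.58, 3.36 and 3.29 in 12-day, at 3.38, 3.28 and 3.64 in 15-day and at 6.83, 7.17 and 7.05 in 22-day KD EBs. All 51 arrays of the other 17 groups lay under their lower quartile. Apoa4, a chylomicron and HDL protein made chiefly by the intestine, was at 4.21, 3.94 and 4.25, then at 4.59, 4.23 and 4.48 and then at 7.79, 7.74 and 7.60 on the same arrays. So both were near their day 0 signals at day 15, when Apoa1 was already at 11.36, 11.12 and 11.20. In 15-day WT EBs Apoa4 was at 4.87, 5.19 and 5.21, above every KD array. The KD minus WT difference there was -0.66 (SE 0.15, limma adjusted p = 0.000265), under 2-fold.

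The difference of 22-day KD from SCR EBs was 3.62 for Apoc3 (SE 0.13, limma adjusted p = 1.73e-25) and 2.99 for Apoa4 (SE 0.15, adjusted p = 3.35e-20). Apoa4 was also called in WT EBs at day 22, at 5.74, 6.13 and 5.94, by 1.49 over day 0, while Apoc3 was at 3.76, 4.02 and 3.87 there and was not. The intestinal marker Lgals4, a galectin of gut epithelium, was at 6.03, 5.48 and 6.07 in 12-day, at 9.62, 9.65 and 9.57 in 15-day and at 11.22, 11.70 and 11.29 in 22-day KD EBs. The mean of 6 intestinal markers was 5.11, 4.39 and 5.04, then 6.01, 6.01 and 5.95 and then 7.40, 7.76 and 7.20 on these arrays. In SCR EBs of days 12 to 22 that mean stayed between 3.78 and 3.96. In WT EBs it was 4.94, 5.47 and 5.46 at day 15 and 4.59, 5.05 and 4.89 at day 22. The WT means of Apoa4 on those days were 5.09 and 5.94. The mean of 10 hepatocyte markers in KD EBs was 8.537, 8.545 and 8.562 at day 15 and 9.384, 9.624 and 9.317 at day 22. The part of either cell type in the 2 late genes was not tested.

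The genes of the chromosome 7 cluster (in the order Apoc2, Apoc4, Apoc1, Apoe) were likewise unequal. Apoc2 had a difference between KD and SCR of 5.34 at day 12, Apoc1 of 0.03 and Apoe of 0.27. Apoc4, which is no member of the 10 and was looked up for its place after values had been seen, was at 0.60 at day 12, not called, and was called higher later, with 2.91 in 15-day and 3.86 in 22-day EBs. Over the 18 group means Apoc2 had a Pearson r of 0.990 with Apoa1 on chromosome 9, of 0.620 with Apoc1 and of 0.254 with Apoe. The points share arrays, and the r values are descriptions without a test.

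SCR and WT EBs, neither of which carry the shRNA against Mageb16, also differed. At day 12, 6 of the 10 were lower in SCR than in WT EBs (2.16% of all probe sets), at day 15 8 (2.4%) and at day 22 7 (2.1%). Apob was at 3.54, 3.96 and 3.55 in 12-day SCR and at 7.01, 9.30 and 8.68 in WT EBs, a difference of -4.65 (SE 0.37, limma adjusted p = 6.87e-13). At day 22 it was at 5.33, 6.0 and 5.83 against 9.44, 9.67 and 9.27. Apoa1 differed by -3.35, -4.20 and -3.23 on days 12, 15 and 22, Apoc2 by -1.95, -4.56 and -3.46 and Apom by -1.65, -3.19 and -2.29. Apoe was at -1.17 and -1.20 at days 12 and 15, and at -0.80, not called, at day 22. Apoc1, at -0.95 at days 12 and 22, was called lower at day 12 without SCR or WT replicate 2 and at day 22 without SCR or WT replicate 1. Apoh was called at day 15, at -2.51, and at day 22, at -1.52. Without all arrays of replicate 3 the counts were 4, 8 and 6, since Apoc2 and Apom at day 12 and Apoh at day 22 lost their calls.

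KD against WT EBs gave 5 higher at day 12 (4.87% of all probe sets), 5 at day 15 (10.4%) and 7 at day 22 (12.4%), and none lower. Apoe was lower in KD than in WT EBs on the 3 days but under 2-fold, at -0.91, -0.65 and -0.70. The limma adjusted p were 3.82e-09, 1.57e-06 and 4.27e-07. All late KD arrays of Apoe (10.56 to 11.15) lay below all late WT arrays (11.53 to 11.76). Apoa2 was at 6.75, 7.34 and 7.12 in 12-day WT EBs and at 12.34, 9.37 and 11.60 in KD EBs, a difference of 4.03 (SE 0.41, limma adjusted p = 8.02e-11). At day 22 it was at 7.61, 8.95 and 8.61 in WT and at 12.06, 12.06 and 12.01 in KD EBs, a difference of 3.65. Apoh differed by 2.83, 3.00 and 4.53 on the 3 days, Apoa1 by 2.38, 1.86 and 3.06, Apoc2 by 3.39, 1.89 and 2.53 and Apom by 2.30, 1.37 and 1.15. The Apoa1 arrays of 12-day KD and WT EBs overlapped, at 8.34 for KD replicate 2 and 8.45 for WT replicate 2. Apoc1, at -0.93 at day 12, was called lower without KD replicate 1 or 3 or WT replicate 2 of that day, or without all arrays of replicate 3, where the count lower was 1 (4.19% of all probe sets were lower), and Apoe, at -0.91, without KD replicate 1. Apob, at 0.09 at day 12, was called higher, at 1.28, without all arrays of replicate 2.

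At day 22 Apoc3 was higher than in WT by 3.13 and Apoa4 by 1.77. Apob was at 9.15, 9.75 and 8.92 in KD and at 9.44, 9.67 and 9.27 in WT EBs, a difference of -0.19 (SE 0.37) with overlapping arrays, beside the -3.74 of SCR against WT. Apoc1 at day 22 was at 0.99, just under 2-fold, and was called without KD replicate 1, WT replicate 2 or WT replicate 3 (1.03 to 1.08). Apom at day 22 lost its call without WT replicate 1, at 0.96, and without all arrays of replicate 3, where the count was 6. The comparisons of KD with SCR, KD with WT and SCR with WT share arrays, so that their values stand side by side and are not independent of each other.

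**Figure D3:**
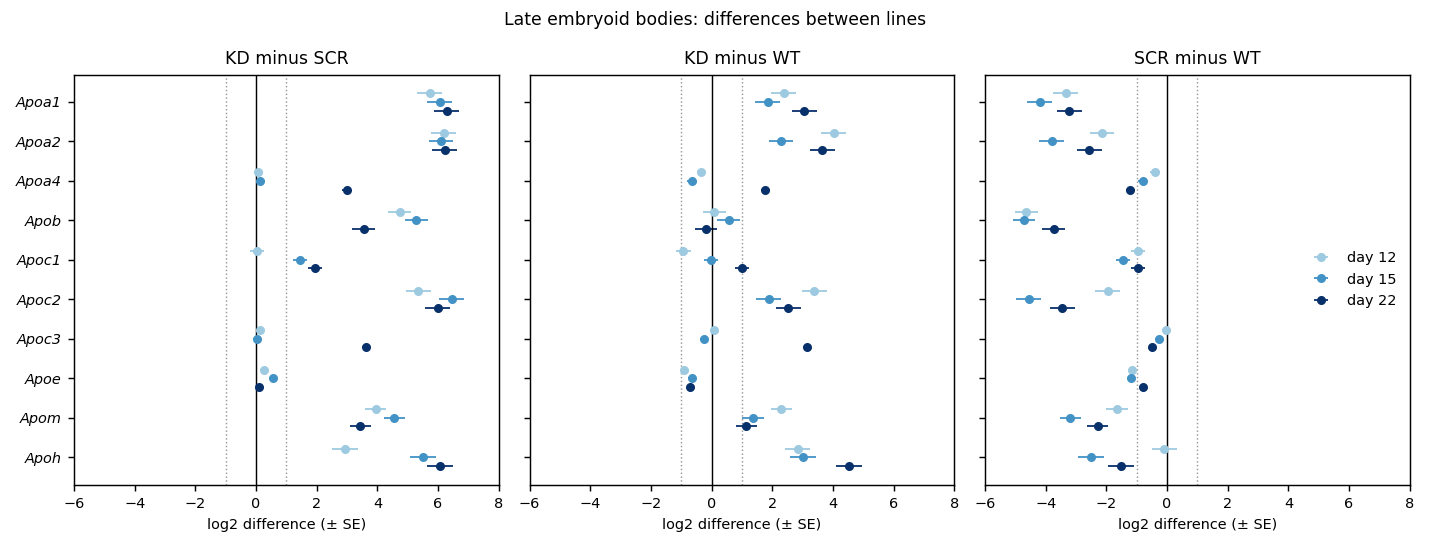
Differences between lines in log2 signal (horizontal axes, with bars of 1 SE) for the 10 genes (vertical axis) at days 12, 15 and 22, dotted at 2-fold. Apob stands near 0 in KD minus WT (-0.19 at day 22) and far from 0 in the other panels, while Apoc3 stands past 2-fold at day 22 of KD minus SCR (3.62) and KD minus WT (3.13) and within it elsewhere.

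Seen within each line, KD EBs gained most. Against day 0, 6 of the 10 were higher in KD EBs at day 12 (16.6% of all probe sets), 6 at day 15 (17.6%) and 9 at day 22 (18.8%). Apoa2 had the largest of these differences at day 22, 7.44 (SE 0.41, limma adjusted p = 1.1e-19), from 4.63, 4.39 and 4.78. Apoa1 rose by 6.81, Apoc2 by 6.51, Apoh by 6.02, Apob by 5.73 and Apom by 4.25. Apoe was at -0.29 there, and its late KD arrays (10.56 to 11.15) lay below every KD array of day 0 (11.20 to 11.29). Apoc1, at -0.58 at day 12, was called lower without KD replicate 1 of that day (-1.04).

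In WT EBs 5 were higher than at day 0 on day 12 (9.65% of all probe sets), 6 on day 15 (8.42%) and 7 on day 22 (8.86%). Apob had the largest difference at each of these ages, 4.71, 5.59 and 5.84. Apoa1, Apoa2, Apoc2, Apom and Apoh had higher means in 15-day than in 22-day WT EBs, as Alb did (11.02, 12.50 and 12.04 at day 15, and 8.45, 11.38 and 10.93 at day 22). WT replicate 1 was the lowest array for these 5 genes at all 3 late ages. Without all arrays of replicate 3 the counts were 3, 6 and 6, with Apoc2 and Apom lost at day 12 and Apoh at day 22. Apom was also lost at day 12 without WT replicate 1 at day 0, or without WT replicate 2 or 3 at day 12.

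SCR EBs gained little. None was higher at day 12, and 2 were lower (5.29% of all probe sets), Apoc1 at -1.12 and Apoe at -1.43. At day 15, 1 was higher (12.7%), Apoa2 at 4.94, 6.70 and 6.09, and 2 were lower (7.45%), Apoc1 at -1.11 and Apoe at -1.65. At day 22, 2 were higher (13.5%), Apoa2 by 1.06 and Apob by 2.16, and 1 was lower (8.62%), Apoe at -1.16. Apoa2 lost its call at day 15 without SCR replicate 2 and at day 22 without SCR replicate 1 of day 0 or replicate 2 or 3 of day 22. Apob at day 15, at 0.93, was called without SCR replicate 2 of day 0 (1.05). Without all arrays of replicate 3 the counts higher were 0 and 1. Apoh stayed between 2.95 and 3.36 and Apoc2 between 2.87 and 4.03 on the 9 late SCR arrays.

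Between days 12 and 22, 6 genes rose in KD EBs (6.79% of all probe sets), 6 in WT EBs (1.36%) and 1 in SCR EBs (4.4%), Apob by 2.04 (SE 0.37, limma adjusted p = 2.54e-05). In KD EBs they were Apoc3 by 3.61, Apoa4 by 3.58, Apoh by 3.07, Apoc1 by 2.47, Apoc2 by 1.39 and Apoa1 by 1.36. The low array of 12-day KD EBs bears on these values, since without it Apoa1 was at 0.49 and Apoc2 at 0.38 and neither was called. Apoa2, at 0.94, was called without KD replicate 1 or 3 of day 12, and Apob, at 0.86, without either of these or KD replicate 3 of day 22. In WT EBs Apoc2 rose by 2.26, Apoa4 by 1.47, Apom by 1.42, Apoh by 1.37, Apoa2 by 1.32 and Apob by 1.13. That count was 3, with Apoa2, Apob and Apoh lost, without WT replicate 1 at day 12 or WT replicate 2 at day 22, and 2 without all arrays of replicate 3. Apoh also lost its call without WT replicate 3 at day 22.

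Whether these changes differed between lines was tested as an interaction. From day 12 to day 22 the KD change exceeded the SCR change for 4 genes (4.78% of all probe sets), Apoc3 by 3.50, Apoh by 3.13, Apoa4 by 2.92 and Apoc1 by 1.92. It exceeded the WT change for 4 as well (7.9%), by 3.06, 1.70, 2.11 and 1.92 for the same 4 genes. The Apoh value against WT lost its call without KD replicate 2 at day 12 (0.72), KD replicate 2 at day 22 (1.60), WT replicate 2 at day 12 (1.57) or WT replicate 1 at day 22 (1.11), and without all arrays of replicate 3, where the count was 3. Between SCR and WT none of the 10 was called (7.41% in either direction), while 5 had an unadjusted p under 0.05 and 1 an adjusted p under 0.05. Leaving out 1 array gave calls there for Apob at 1.57 (without WT replicate 1 at day 12), for Apoc2 at -1.80 (without WT replicate 2 at day 12 or WT replicate 1 at day 22) and for Apoh at -2.02 (without WT replicate 1 at day 22).

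Other calls in these changes also turned on single arrays. None of the 10 was called lower in the KD minus SCR or the KD minus WT change from day 12 to day 22, where 2.26% and 3.32% of all probe sets were. Without KD replicate 2 at day 12, Apob and Apom were called lower in the KD minus SCR change (-1.89 and -1.32), and Apoa2, Apoc2 and Apom in the KD minus WT change (-1.25, -1.88 and -1.96). Apom was also called lower against WT without WT replicate 2 at day 12 (-1.44) or WT replicate 1 at day 22 (-1.34). Without KD replicate 1 at day 12, Apoc2 was called higher in the KD minus SCR change, at 1.40. Over the whole course, from day 0 to day 22, the KD change exceeded the SCR change for 9 genes (9.42%) and the WT change for 8 (13.4%), all but Apob and Apoe. Without all arrays of replicate 3 the latter count was 7, since Apom lost its call. The SCR change was below the WT change for 7 (2.26%), or 4 without all arrays of replicate 3. Of these, Apoa4 at -1.04 lost its call without SCR or WT replicate 3 of day 0 or WT replicate 2 of day 22, and Apoe at -1.10 without SCR replicate 2 of day 22. Apoh was called lower without WT replicate 1 of day 22, at -2.11.

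In the order of the groups by mean, 10 to 16 of the 17 neighbouring pairs of groups had overlapping arrays. Apoa1 was brightest in 22-day, then 15-day and then 12-day KD EBs (means 11.45, 11.23 and 10.09), followed by 15-day, 22-day and 12-day WT EBs (9.37, 8.39 and 7.71), and 15 of its 17 neighbouring pairs overlapped. Arrays did not overlap between 12-day WT and 15-day SCR EBs (5.17), nor between 22-day SCR EBs (5.16) and WT ESCs (4.83). Apoh had 22-day and 15-day KD EBs set apart from each other and from the rest (9.20 and 8.63). Apoc3 had 1 gap, below 22-day KD EBs, with 16 of 17 neighbours overlapping. Apoe was brightest in SCR ESCs (12.01) and dimmest in 4-day KD EBs (9.67), and 12 of 17 neighbours overlapped. Apoc1 had the fewest overlapping neighbours, 10 of 17, with 22-day KD EBs at the top (10.95) and 4-day WT and 4-day KD EBs at the bottom (7.13 and 6.21) set apart.

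The other probe sets of Apoa1, Apoa4 and Apom had the calls of the chosen ones in the 4 line comparisons looked at, and those of Apob and Apoh did not. The chosen Apoa1 probe set is of a kind that can bind related transcripts. The other 3 of Apoa1 had r of 0.994 to 0.996 with it over 54 arrays and differences of 6.07 to 6.86 between 22-day KD and SCR EBs, all called. The other probe set of Apoa4 differed by 4.44 and that of Apom by 2.92, both called. The other probe set of Apob (r 0.831) was at 0.97 in 22-day KD against SCR EBs and was not called, but was lower in SCR than in WT EBs, at -1.49. The other probe set of Apoh ran against the chosen one (r -0.481) and was called in none of the 4.

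Other genes of lipoprotein metabolism were counted by lists. A gene counts as measured where the deposited values hold a probe set with its symbol alone. Ttr, Amn, Cubn, Lrp2 and Pltp each stand in more than 1 list. The counts for 22-day KD against SCR EBs stand beside 8.55% of all probe sets higher and 3.84% lower. Of 13 measured further apolipoproteins and lipid-binding plasma proteins, 9 were higher in 22-day KD than in SCR EBs and none was lower, with a median of 3.86 beside -0.11 over all probe sets. Saa3 and Saa1, acute-phase proteins carried on HDL, differed by 7.50 and 6.72, Apof by 6.14 and clusterin (Clu) by 5.03. In 12-day EBs 5 of them were higher in KD (6.65% of all probe sets) and Apod was lower (4.42%), and the largest difference was that of the thyroxine carrier Ttr, 6.35. Among 12 measured genes of lipoprotein assembly and secretion, 6 were higher at day 22 and 6 were not called (median 0.97). They include Apobec1, which edits the Apob transcript, at 1.86, Dgat2, which makes triglyceride, at 1.74, Cideb at 1.5 and the lipid-droplet coat protein Plin2 at 1.29. Of 12 lipases, lipid transfer and efflux genes 5 were higher (median 0.24), Gpihbp1, which anchors lipoprotein lipase to endothelium, at 4.64, Angptl8 at 1.90, Lpl at 1.81 and the cholesterol exporter Abca1 at 1.62.

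Receptors and cholesterol synthesis had counts near the share of all probe sets (8.55% higher and 3.84% lower). Of 16 lipoprotein receptors 2 were higher in 22-day KD than in SCR EBs, the scavenger receptors Olr1 at 4.19 and Cd36 at 1.96, and 1 was lower, the endocytic receptor Lrp2 at -1.49. The other 13 were not called, and the median was -0.03. Cholesterol synthesis had 2 of 17 higher, Sc5d at 1.33 and Hsd17b7 at 1.07, with a median of 0.11. Among 26 hepatic and endodermal transcription factors 9 were higher and none was lower (median 0.86), with Hnf4a at 2.76, Foxa3 at 2.56, Pparg at 2.47 and Gata6 at 2.37. HNF4A and FOXA proteins are known regulators of apolipoprotein genes in liver. Hnf4a was at 5.15, 5.07 and 5.02 in 22-day SCR, at 6.47, 6.80 and 6.79 in WT and at 7.90, 7.86 and 7.76 in KD EBs. In 22-day SCR against WT EBs it was at -1.61. Of the 26 factors 3 were higher and 7 lower there, beside 1800 higher and 649 lower of 30939 probe sets. The part of these factors in the apolipoprotein signals was not tested. Against WT, 3 of the 16 receptors were higher and 3 lower in 22-day KD EBs, and 9 of the 26 transcription factors were higher and 2 lower, beside 12.4% of all probe sets higher and 7.34% lower.

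Markers of cells known to make apolipoproteins were measured on the same arrays, and the lists differed. All 10 measured hepatocyte markers were higher in 22-day KD than in SCR EBs, with a median of 7.23, led by Serpina1b at 8.69, Fgg at 8.62, Fgb at 8.15 and Fga at 7.85. Cyp2e1 lay under the lower quartile on all SCR and all KD arrays of that day, so the size of its difference is not exact. In SCR EBs of days 12 to 22 the mean of this list was 3.33 to 4.31, and 6 to 10 of its 10 genes lay under the lower quartile on every array of a group. In KD EBs it was 6.04 to 9.62 and in WT EBs 4.53 to 7.49. In 22-day WT EBs replicate 1 had 4.85, against 6.84 and 6.50. Against WT, 9 of the 10 were higher in 22-day KD EBs, and in SCR against WT EBs 7 were lower.

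Visceral endoderm and yolk sac markers did not go one way. Of 9 measured, 4 were higher in 22-day KD than in SCR EBs, led by Spp2 at 5.40, Ttr at 4.16 and Afp at 3.84, and Lrp2 was lower. Against WT 2 were higher, led by Spp2 at 2.73, and 5 lower, among them Amn at -2.44, Lrp2 at -2.35 and Cubn at -2.31. The mean of that list over days 12 to 22 was 6.02 to 7.58 in SCR, 7.15 to 8.77 in KD and 7.92 to 9.46 in WT EBs. All 6 intestinal markers were higher in 22-day KD than in SCR EBs (median 3.56), led by Lgals4 at 6.73, and 4 of the 6 lay under the lower quartile on all SCR arrays of that day. Macrophage markers had 8 of 9 higher (median 2.96), led by Cd14 at 4.76. Their mean in late EBs was 8.37 to 8.88 in KD, 5.27 to 6.15 in SCR and 5.64 to 8.25 in WT EBs.

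Of the remaining lists, that of 5 adipocyte markers had 1 measured, so that no more than 1 gene stands for it. This gene, Fabp4, differed by 6.11 between 22-day KD and SCR EBs. Of 6 astroglia markers 1 was higher and 2 were lower in that comparison. Against 22-day WT EBs, 4 of the 6 were higher in KD (12.4% of all probe sets) and 4 in SCR EBs (1800 of 30939), and none was lower. Their mean at day 22 was 7.14 to 7.32 in KD, 7.03 to 7.44 in SCR and 5.17 to 5.42 in WT EBs. Of 7 pluripotent cell markers 5 were lower in 22-day KD than in SCR EBs, and their mean at day 22 was 9.65 to 9.69 in KD, 10.59 to 11.07 in SCR and 10.93 to 11.01 in WT EBs. The part that any of these cell types has in the apolipoprotein signals was not tested.

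**Figure D4:**
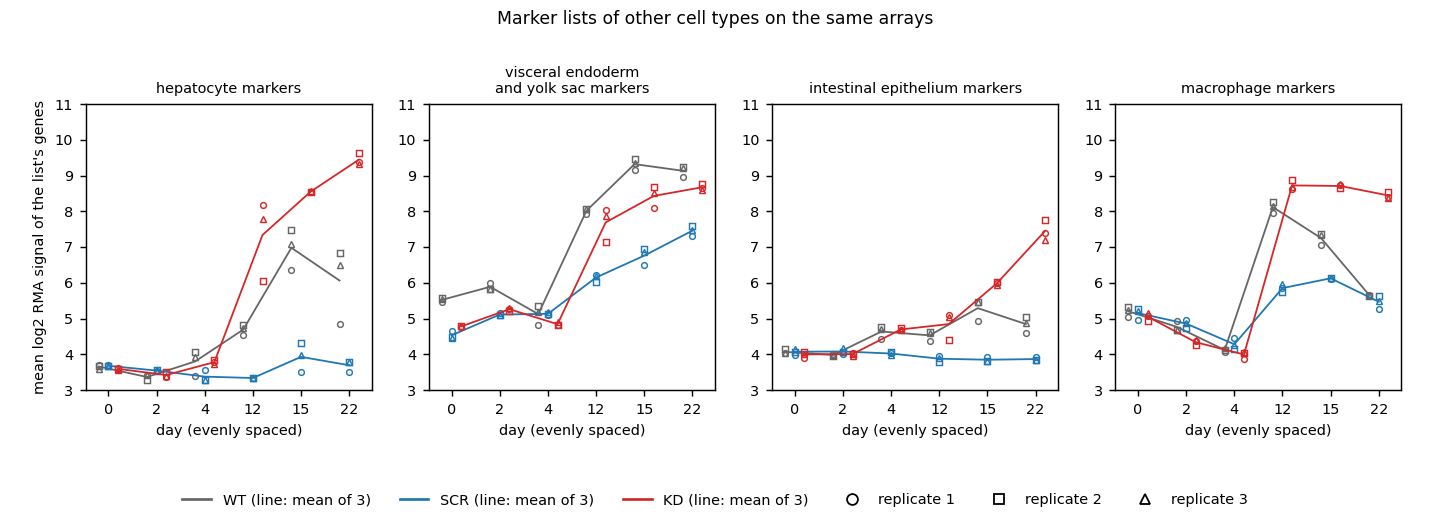
Mean log2 RMA signal over the measured genes of 4 marker lists (vertical axis) by day (horizontal axis, days evenly spaced) on the same arrays. Points are arrays and lines join the means of 3. The hepatocyte list separates KD (9.32 to 9.62 at day 22) from SCR EBs (3.51 to 3.79), while the visceral endoderm list is highest in late WT EBs.

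The genes whose profiles were most like those of the 10 were found among 1527 genes that varied, by r over the 18 group means. The nearest gene was the fibrinogen chain Fgb for Apoa1 (0.993), Ambp for Apoa2 (0.993), Spp2 for Apoc2 (0.994), complement factor I (Cfi) for Apoh (0.997), the acute-phase protein Orm1 for Apoc3 (0.993), the retinol carrier Rbp4 for Apob (0.970), Clca4b for Apoa4 (0.951), Apoc2 for Apom (0.986), Ahnak2 for Apoe (0.885) and Nupr1 for Apoc1 (0.882). Fgb was among the 3 nearest genes of Apoa1, Apoa2 and Apoc2. For Apoe and Apoc1 the best likeness was thus below that of the other 8 genes. These values rest on 18 means that share arrays and are given as a description.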

How the data were processed

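RNA of 54 samples was hybridised to Affymetrix arrays after Trizol and RNeasy clean-up. The values used are the log2 signals deposited by the authors, summarised and normalised by RMA, with Expression Console and Partek 6.6 named in the submitters' processing notes, while the study's methods name R Bioconductor. All 54 columns were matched to samples by name (0 not mapped). The deposited probe sets were named from the platform annotation, by which 25596 have 1 symbol, 685 have several and 4658 have none. Each gene was read from its probe set with the highest mean. RMA and normalisation between arrays make values relative to the array, not absolute amounts.

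The members and gene lists were chosen with earlier results of these data known. All 10 members are named. From the other 13 lists, whose genes were also fixed by hand, up to 4 called genes with the largest differences are named per comparison. The likeness of profiles was taken as Pearson r over group means, among genes whose means had an SD of at least 1. One linear model with a mean for each of 18 groups (36 residual degrees of freedom) was fitted with limma 3.58.1 in R 4.3.3, followed by eBayes, and 42 contrasts were adjusted over all 30939 probe sets. On simulated data for KD against SCR at day 4, all 50 probe sets changed by 1.5, all 50 by 2.5 and all 50 by 4 log2 were called, none of 50 changed by 0.7, under the 2-fold minimum, and 1 of 30739 unchanged ones. The simulated arrays were drawn independently of each other, so these counts check the procedure only. They do not give the rate of false calls where real arrays depend on each other. Replicate numbers are shared by the labels of all groups but were not taken to pair arrays, since the correlations of same-numbered deviations were all over 0.1 in 6 of 18 pairs of lines and days. Alternatives were another quantile normalisation, median centring, a filter keeping the brightest 60% of probe sets, the mean of a gene's probe sets, only the arrays compared, a replicate block, trended robust eBayes, array weights, no 2-fold minimum and leaving out each array, and, added after the values of replicate 3 had been seen, leaving out all arrays of a replicate number. Promoter sequences and gene order are from RefSeq (GRCm38.p6), searched and counted with Python 3.11.15, and the figures were drawn with matplotlib 3.10.9. Arrays give no read depth, and 3 arrays a group limit the precision.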

Additional observations from a re-analysis of the deposited data

Results flagged for a closer look

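The change over time differed between lines for several of the genes, by a limma test of the difference of the changes (log2, Benjamini-Hochberg adjusted p over all probe sets). From day 12 to day 22 the KD change exceeded the SCR change by 2.92 in Apoa4 (SE 0.22), 1.92 in Apoc1 (SE 0.33), 3.50 in Apoc3 (SE 0.18) and 3.13 in Apoh (SE 0.60). It exceeded the WT change by 2.11 in Apoa4, 1.92 in Apoc1, 3.06 in Apoc3 and 1.70 in Apoh (limma adjusted p = 0.0251), where the last value was 0.72 and not called without replicate 2 of 12-day KD EBs.

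From day 0 to day 22 the KD change exceeded the SCR change by 6.16 in Apoa1, 6.38 in Apoa2, 2.91 in Apoa4, 3.57 in Apob, 2.46 in Apoc1, 6.19 in Apoc2, 3.64 in Apoc3, 3.68 in Apom and 6.10 in Apoh. It exceeded the WT change by 3.25 in Apoa1, 3.67 in Apoa2, 1.87 in Apoa4, 1.59 in Apoc1, 2.76 in Apoc2, 3.24 in Apoc3, 1.72 in Apom (limma adjusted p = 0.0031) and 4.58 in Apoh. Apom was not called there without all arrays of replicate 3, at an adjusted p of 0.0576.

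The SCR change from day 0 to day 22 was below the WT change, at -2.91 in Apoa1, -2.71 in Apoa2, -1.04 in Apoa4, -3.68 in Apob, -3.43 in Apoc2, -1.10 in Apoe and -1.96 in Apom. Without all arrays of replicate 3, Apoa2, Apoa4 and Apom lost this call, at -2.61, -0.91 and -2.04. The 3 sets of changes share arrays and are not independent of each other.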

How the results depend on the processing

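Of 828 counts of called genes under the alternatives, 759 lay within 1.5 times the value reported. Of 7752 values of single genes, 7542 kept direction and call, 83 lost the call, 127 gained it and none changed sign while called. Trended robust eBayes moved no count by over 1.5 times. Counts that moved further are as follows, and the cause was not tested unless given. With quantile normalisation repeated, and also with median centring, SCR day 15 against day 0 had 0 higher, SCR day 22 against day 0 had 1 higher and the SCR minus WT change from day 12 to 22 had 1. The brightest 60% of probe sets leave out Apoa4, Apoc2, Apoc3 and Apoh, so that fewer genes were counted. KD minus SCR then had 5 higher at day 22, KD minus WT 3 at day 12, 3 at day 15 and 3 at day 22, SCR minus WT 4 lower at day 22, WT day 22 against day 0 4 and KD day 22 against day 0 5. Day 22 against day 12 then had 3 in WT and 2 in KD, the change from day 12 to 22 had 1 for KD minus SCR and 1 for KD minus WT, and that from day 0 to 22 had 5 and 4. With the mean of a gene's probe sets, SCR day 22 against day 0 had 1 higher and the SCR minus WT change from day 12 to 22 had 2. With array weights, KD minus WT at day 4 had 1, SCR day 15 against day 0 2 higher, SCR day 22 against day 12 3 and the SCR minus WT change from day 12 to 22 3. Without the 2-fold minimum, which admits smaller differences, there was 1 in KD minus SCR at day 0, 1 each in KD minus WT at days 0, 2 and 4 and 1 in SCR minus WT at day 2. SCR against day 0 then had 3 at day 2, 2 lower at day 4, 2 higher at day 15 and 2 lower at day 22, SCR day 22 against day 12 had 3, and the SCR minus WT change from day 12 to 22 had 1, as it had with only the arrays compared.

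Leaving out arrays gave ranges of 0 to 1 for KD minus WT at day 4, 1 to 2 for SCR minus WT at day 4, 3 to 5 for WT day 12 against day 0, 1 to 2 for KD day 2 against day 0, 0 to 1 for SCR day 2 and 1 to 2 for SCR day 12 against day 0. They were 0 to 2 higher and 1 to 2 lower for SCR day 15, 1 to 2 higher for SCR day 22 against day 0, 2 to 6 for WT and 1 to 3 for SCR day 22 against day 12, 0 to 2 for the SCR minus WT change from day 12 to 22 and 4 to 9 for that from day 0 to 22. With a replicate block, the counts of called genes were the same as without it in all 44 comparisons and 0 of 420 calls changed. Deviations of same-numbered arrays from their group means correlated between -0.40 and 0.50 across lines, so that the numbers were not taken as a pairing. Signals under the lower quartile limit Apoc3, Apoh and Apoc2 most.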
